A study of Mus musculus with 4 samples.

Results

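Lysosomal proteases and their secreted inhibitor were followed through the non-muscle cells of the mouse heart. The set has 10 genes of the 32286 features in the count table. It holds the cysteine cathepsins Ctsb, Ctss, Ctsl, Ctsc, Ctsz, Ctsh and Ctsk, the aspartic cathepsin Ctsd, the asparaginyl endopeptidase legumain (Lgmn) and cystatin C (Cst3). They were chosen by symbol, and each symbol matched 1 feature. The hearts came from mice of strain Ccr2creERT2-Ai14, in which a tamoxifen-dependent Cre made from the Ccr2 gene can switch on a tdTomato reporter. All 4 samples share this genotype, 2 of them being controls and 2 taken 1 month after stroke. Age, sex and reporter induction are not given in the sources used here. Hearts were digested with enzymes, strained to hold back heart muscle cells, and freed of red and dead cells before live nucleated cells were sorted and captured in droplets.

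The deposited table joins 4 libraries that carry numbers from 1 to 4 and no sample name. Stroke and control could therefore not be compared, and no value is assigned to either. Each member is described instead across cell classes named from marker genes and across subsets of macrophages, with its value in each library. After filtering, 37594 cells with 147401782 unique molecular identifiers (UMIs, 1 for each captured RNA molecule) remained, 8625 to 10031 cells in a library, with library medians of 2583 to 3487 UMIs per cell. Library 3 stood apart, with 2 UMIs of Xist where the other libraries held 18322 to 25063, and it gave 626 of the 1173 macrophage-like cells. In all, 161 barcode sequences occurred in more than 1 library, and leaving these cells out moved no value beyond the margins set for the alternatives.

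Cathepsins are made as inactive precursors, carried to the lysosome on mannose 6-phosphate receptors and cut into active enzymes in its acid interior. There they break down proteins taken up by the cell, and in antigen-presenting cells they also trim the invariant chain from MHC class II molecules. Some are secreted and act on matrix outside the cell, where cystatin C binds and blocks enzymes of the papain family. Legumain cuts after asparagine and takes part in processing several cathepsins. Cystatin C does not inhibit the aspartic protease cathepsin D.

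Levels are given in CPM, the share of a gene in all UMIs scaled to 1000000, summed over the cells of a class. Since 1 molecule gives at most 1 UMI at its 3′ end, levels of different genes can be set side by side without a length term. Intervals are 95% intervals that cover counting error only, and no test or p-value is given because the cells of 1 joined table are not replicates. Names such as macrophage-like rest on RNA markers alone. A log2 fold was computed with 20 CPM added on both sides, which understates the change of genes at low levels, and a gene was called when it differed 2-fold or more on that scale.

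Promoters of 4 members are shown because their start regions differ in motifs of lysosomal and myeloid regulators, and because Ctss and Ctsk are neighbours with different patterns. Each runs 5′ to 3′ on the gene's strand from 250 bases before the RefSeq start site to 10 bases after it, on build GRCm38.p6. Windows were found in the RefSeq table for 8 of the 10 members, without Ctsb and Ctsh. Capitals mark matches to 3 motifs searched on both strands: TCACGTGA, the core of the CLEAR element bound by TFEB, the shorter E-box CACGTG inside it, and GAGGAAGT (ACTTCCTC on the other strand), an extended core of the myeloid factor PU.1.
Ctsd, chr7:142387818-142388077, minus strand: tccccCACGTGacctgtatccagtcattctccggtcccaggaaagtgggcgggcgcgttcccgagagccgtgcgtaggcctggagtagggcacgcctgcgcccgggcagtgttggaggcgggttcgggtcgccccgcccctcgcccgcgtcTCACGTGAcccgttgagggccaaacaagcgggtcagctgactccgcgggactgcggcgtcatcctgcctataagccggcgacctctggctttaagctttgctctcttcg
Ctss, chr3:95526536-95526795, plus strand: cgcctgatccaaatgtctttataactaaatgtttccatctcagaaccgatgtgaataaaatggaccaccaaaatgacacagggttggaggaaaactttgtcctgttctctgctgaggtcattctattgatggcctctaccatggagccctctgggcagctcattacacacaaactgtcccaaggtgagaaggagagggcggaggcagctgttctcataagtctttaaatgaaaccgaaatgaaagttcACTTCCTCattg
Ctsc, chr7:88277835-88278094, plus strand: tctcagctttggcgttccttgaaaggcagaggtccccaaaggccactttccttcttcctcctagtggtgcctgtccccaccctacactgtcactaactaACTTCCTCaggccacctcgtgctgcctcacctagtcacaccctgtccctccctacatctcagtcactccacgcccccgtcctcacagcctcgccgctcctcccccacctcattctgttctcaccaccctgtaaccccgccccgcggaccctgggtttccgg
Ctsk, chr3:95498960-95499219, plus strand: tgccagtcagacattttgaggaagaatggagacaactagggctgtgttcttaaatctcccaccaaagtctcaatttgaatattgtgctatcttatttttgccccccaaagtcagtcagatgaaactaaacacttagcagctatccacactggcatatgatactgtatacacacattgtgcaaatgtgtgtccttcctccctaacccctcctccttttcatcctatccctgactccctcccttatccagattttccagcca

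Over the full windows of 300 bases, which reach 50 bases past the start, TCACGTGA was found in Ctsd alone among the members, at -99 from the start site, where 0.974% of the 32851 mouse promoter windows hold it. Its E-box CACGTG lay within that match, again at -245 in Ctsd, and once in Ctsl and in 1 of the 2 Lgmn windows, against 7.15% of all windows. The PU.1 letters were found in Ctss, across the start site from -2, and in Ctsc at -151, against 3.2% of all windows. None of the 3 motifs was found in the windows of Ctsk, Ctsz and Cst3. A match of letters is a description of the sequence and was not tested as a binding site.

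The members did not share 1 cell type. Each had its highest level in 1 of 18 classes of at least 50 cells, and these peaks fell in 7 classes. Macrophage-like cells held 3 of them (Ctsc, Ctsz and Lgmn), where 3.52% of the 8119 genes at 50 CPM or more in some class peaked, and endocardial-like cells 2 (Ctsh and Ctsk), against 2.7%. Non-classical monocyte-like (Ctsb), NK cell-like (Ctsd), fibroblast-like (Ctsl), monocyte-like (Ctss) and dendritic-like cells (Cst3) held 1 each, in classes where 8.4%, 7.38%, 4.84%, 4.41% and 3.25% of these genes peaked.

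**Figure D1:**
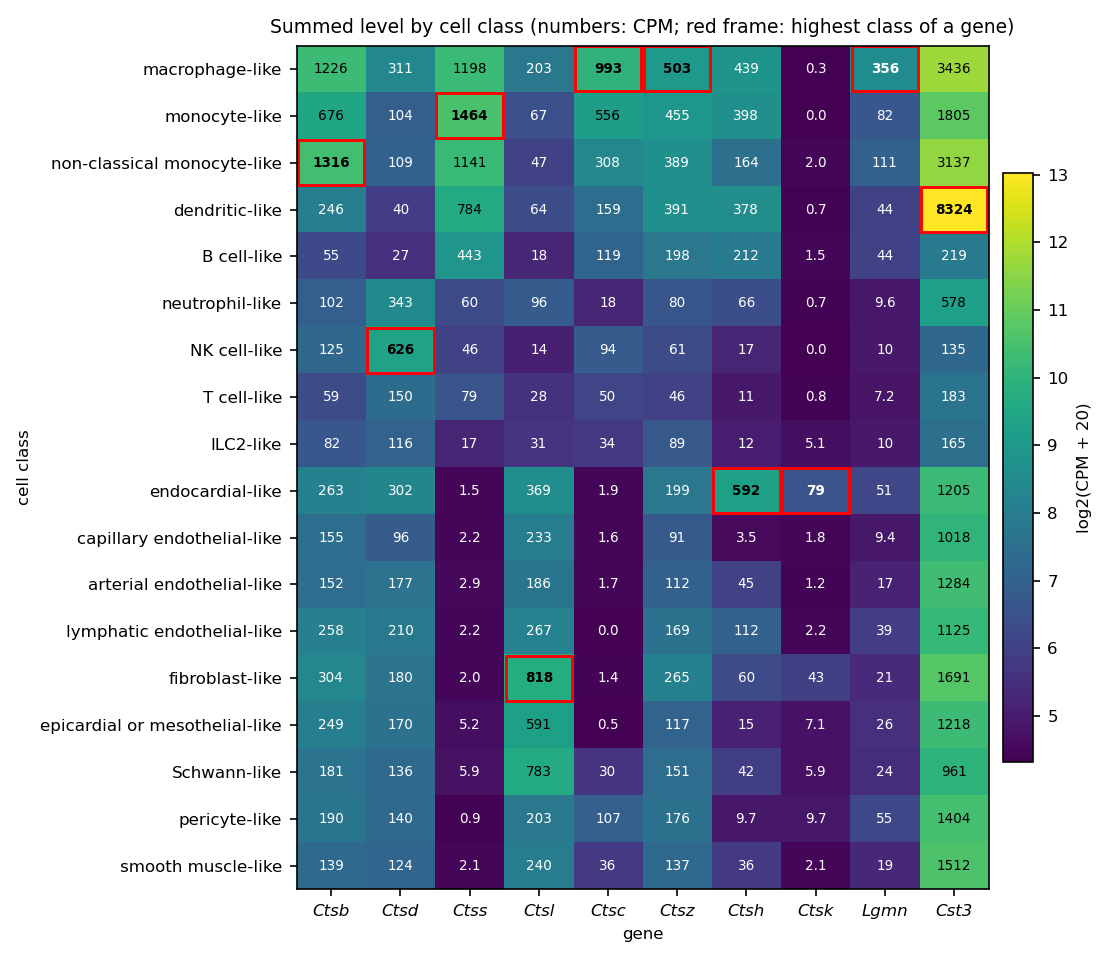
Level of each member (columns) in 18 cell classes (rows). Numbers are CPM, colour is log2(CPM + 20), and a red frame marks the highest class of a gene. The frames spread over 7 classes, Ctss and Ctsc are near 0 in endothelial-like and fibroblast-like rows, and Cst3 stands above 100 CPM in every row.

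Against all other cells together, macrophage-like cells held 7 of the 10 members 2-fold or more higher, where 8.89% of 8075 genes were higher. These were Ctsc (36.1-fold, 95% interval 34.7 to 37.6), Ctss (15.8-fold), Lgmn (13.7-fold), Ctsb (4.97-fold), Ctsh (4.01-fold), Ctsz (2.64-fold) and Cst3 (2.49-fold), each higher in all 4 libraries. The other cells took in monocyte-like and dendritic-like cells, which share several of these genes. They also took in the 2364 unnamed cells, among them 62 led by Retnla and Spp1 that scored best as macrophages. Ctsl (0.455-fold) and Ctsk were lower, 2 of 10 members where 14.1% of genes were lower. The median log2 fold of the members was 1.57, against -0.15 over all genes tested. Without library 3 the 7 higher members remained at log2 folds of 1.20 to 4.25, and Ctsd passed 2-fold too, at a log2 fold of 1.34. The 2 lower calls were less firm. Ctsl missed the threshold without library 1, at -0.90, and with doublets kept, at -0.98. Both missed it with cells weighted equally (Ctsl -0.87, Ctsk -0.82) and with cells thinned to 1000 UMIs (Ctsl -0.77, Ctsk -0.81).

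Cathepsin B, an abundant lysosomal cysteine protease with both endopeptidase and peptidyl-dipeptidase activity, is encoded by Ctsb (ENSMUSG00000021939, chr14:63122462-63145923). It was highest in non-classical monocyte-like cells at 1316 CPM (1266 to 1367), with 1571, 1229.9, 1455 and 1166 CPM in libraries 1 to 4. Macrophage-like cells followed at 1226 CPM, with 1362, 1089, 1325 and 1035 CPM. The ranges of these classes over libraries overlapped, while monocyte-like cells stood below both in every library, at 582 to 700.5 CPM. Fibroblast-like cells, the 8062 cells of which held 304 CPM, gave 37.2% of all Ctsb UMIs. The low end was shared by B cell-like (54.9 CPM) and T cell-like cells (59.5 CPM).

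Cathepsin S is the cysteine protease best known for the last step of invariant chain removal, and it stays active at neutral pH. Ctss (ENSMUSG00000038642, chr3:95526786-95556403) was high in monocyte-like, macrophage-like, dendritic-like and B cell-like cells, and low in neutrophil-like cells. Monocyte-like cells had 1464 CPM (1383 to 1548), with 1324, 1417, 1599 and 1445 CPM in libraries 1 to 4. Macrophage-like cells had 1329, 1124, 1174 and 1378 CPM, a range that overlapped that of monocyte-like cells and of non-classical monocyte-like cells (976 to 1272 CPM). Dendritic-like cells at 784 CPM and B cell-like cells at 443 CPM came next, each below the class before it in all libraries. The step from there was steep, since T cell-like cells held 79.2 CPM, neutrophil-like cells 59.8 CPM (13.8 to 82.3 CPM over libraries) and the 9 endothelial-like, mural, fibroblast-like, epicardial-like and Schwann-like classes 0.884 to 5.93 CPM.

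Cathepsin K, an acid collagenase known from bone-resorbing osteoclasts, is the direct neighbour of Ctss. Ctsk (ENSMUSG00000028111, chr3:95499256-95509362) ends 17423 bases before Ctss begins on the same strand, with no protein-coding gene between them in the RefSeq annotation. It was found in other classes than Ctss. Endocardial-like cells held 78.8 CPM (74.0 to 83.8), with 89.5, 85.8, 73.6 and 69.6 CPM in libraries 1 to 4, and fibroblast-like cells held 38.4, 49.2, 52.0 and 39.3 CPM. These classes did not overlap, and of the Ctsk UMIs of all 18 classes fibroblast-like cells gave 66.8% and endocardial-like cells 29.4%. Macrophage-like cells held 2 Ctsk UMIs in 1173 cells, and monocyte-like cells 0 UMIs, which allows up to 3.57 CPM.

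Cathepsin L, a broad endopeptidase whose loss in mice is known to cause a late cardiomyopathy, is encoded by Ctsl (ENSMUSG00000021477, chr13:64359337-64370890). It was the member with the largest share of its UMIs in fibroblast-like cells. Fibroblast-like cells had 818 CPM (811 to 826), with 784, 840.0, 832 and 846 CPM in libraries 1 to 4, and gave 67.6% of all its UMIs. Schwann-like cells, which ensheath nerves, were level with them at 783 CPM (692 to 884) and took the first place when cells were weighted equally. Epicardial-like or mesothelial-like cells followed at 591 CPM, below fibroblast-like cells in each library (453 to 699.7 CPM). Macrophage-like cells held 203 CPM, and NK cell-like (14.3 CPM) and B cell-like cells (18.1 CPM) the least.

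**Figure D2:**
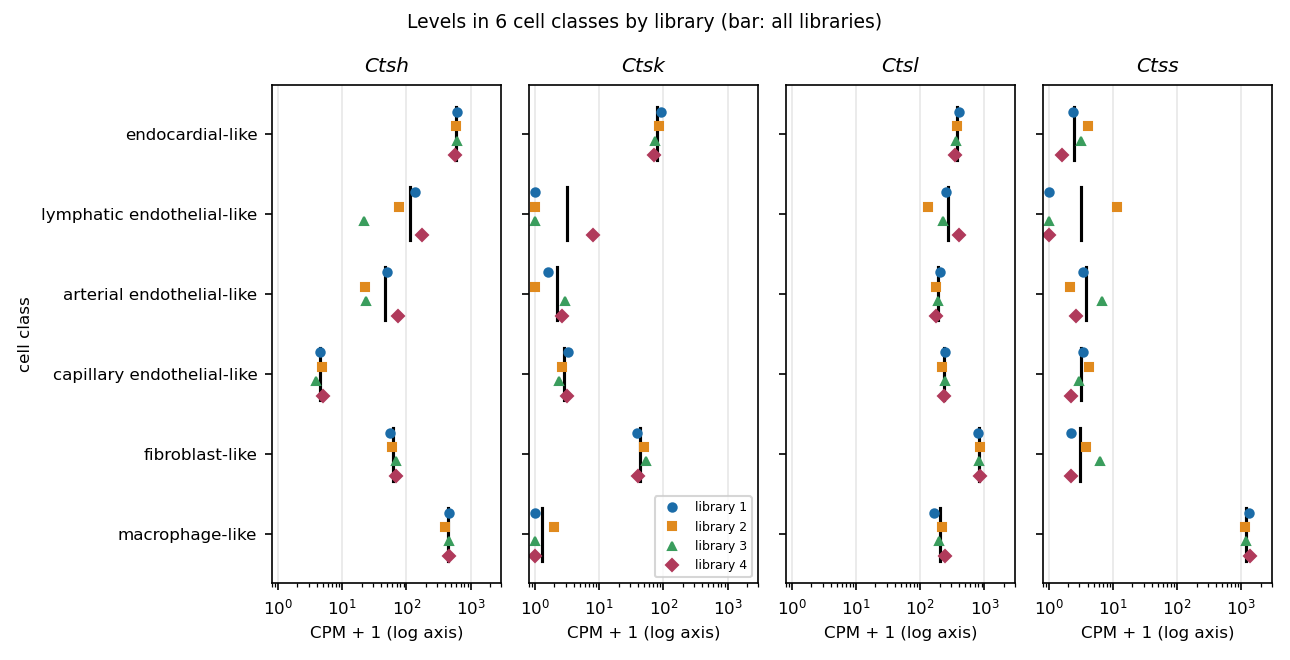
Levels of Ctsh, Ctsk, Ctsl and Ctss (CPM + 1, log axis) in 6 cell classes. Points are the 4 libraries and black bars all libraries together. Ctsh and Ctsk are far higher in endocardial-like than in capillary endothelial-like cells in every library, and Ctss is high in macrophage-like cells alone of these classes.

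Cathepsin C, also called dipeptidyl peptidase I, activates the serine proteases stored in granules of neutrophils, mast cells and killer lymphocytes. Ctsc (ENSMUSG00000030560, chr7:88278085-88310888) was highest in macrophage-like cells. Macrophage-like cells had 993 CPM (969.6 to 1016), with 1052, 793, 1179.5 and 652 CPM in libraries 1 to 4, and gave 64.3% of all Ctsc UMIs. Monocyte-like cells were lower in every library at 481 to 643 CPM. Neutrophil-like cells held 17.9 CPM from 26 UMIs and NK cell-like cells 93.7 CPM. Pericyte-like cells, the contractile cells around capillaries, held 107 CPM (88.7 to 128) and 90.6 to 116 CPM over libraries, while endothelial-like and fibroblast-like classes were at or below 1.89 CPM. No UMI was seen in lymphatic endothelial-like cells, which allows up to 6.57 CPM.

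The granule proteases that cathepsin C activates were listed to set beside it. Of the 9 listed, 1 (Prtn3) was higher and 1 (Gzma) lower in macrophage-like cells among 2 that passed the filter of 20 CPM. The list was highest in NK cell-like cells, through Gzma (3907 CPM), Gzmb (571 CPM) and Cma1 (82.0 CPM). Gzma and Gzmb, killer cell granzymes, thus peaked in a class with less Ctsc than macrophage-like, monocyte-like, dendritic-like or B cell-like cells. Cma1 is a mast cell gene, and an unnamed cluster of 19 cells led by it, Mcpt4 and Ccl4 lay outside the classes.

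Legumain was also highest in macrophage-like cells. Lgmn (ENSMUSG00000021190, chr12:102394084-102439813) stood at 356 CPM (342 to 370.2) in macrophage-like cells, with 329, 251, 451 and 241 CPM in libraries 1 to 4. Non-classical monocyte-like cells were next at 111 CPM and did not overlap with them in any library (81.7 to 166 CPM). Monocyte-like (82.2 CPM), pericyte-like (54.8 CPM) and endocardial-like cells (51.5 CPM) followed, with library ranges that overlapped. Capillary endothelial-like cells were near the bottom at 9.42 CPM.

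Cathepsin Z, a carboxypeptidase, was shared by several myeloid classes. Ctsz (ENSMUSG00000016256, chr2:174427493-174439039) had 503 CPM (487 to 520.2) in macrophage-like cells, with 499, 458, 521 and 546 CPM in libraries 1 to 4. Monocyte-like (455 CPM), dendritic-like (391 CPM) and non-classical monocyte-like cells (389 CPM) had overlapping library ranges. Fibroblast-like cells at 265 CPM came below these and gave 46.4% of all its UMIs. The lowest class, T cell-like cells, still had 45.9 CPM.

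Cathepsin H, an aminopeptidase, had 2 centres. Ctsh (ENSMUSG00000032359, chr9:90054152-90076089) was highest in endocardial-like cells, the lining of the heart chambers, at 592 CPM (579 to 605), with 610.5, 583, 614 and 574 CPM in libraries 1 to 4. Macrophage-like cells were second at 439 CPM, with 454, 392, 460.2 and 457 CPM, and did not overlap with them. Monocyte-like (398 CPM), dendritic-like (378 CPM) and B cell-like cells (212 CPM) followed. Capillary endothelial-like cells held the least of all classes, 3.52 CPM (2.93 to 4.19).

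The endocardial side of the set was then compared with the other endothelial-like cells, a comparison chosen after these levels had been seen, so that its values are descriptions. Only named classes entered it. Unnamed clusters of 536, 480 and 372 cells, whose best marker lists were endothelial, were left out. The first of these scored best on the venous endothelial list, which cluster 13 of the endocardial-like class also met. It shared Vwf and Kcnc2 among its leading genes with cluster 13. No class was named venous, so the comparison holds no venous endothelial-like class. Endocardial-like cells held 4 of the 8 members tested 2-fold or more higher, where 7.38% of 7511 genes were higher, and 0 of 8 lower, where 7.24% were. Ctsh was 56.4-fold higher (51.2 to 62.2), at 592 against 10.5 CPM, and Ctsk 46.2-fold (36.3 to 59.5), at 78.8 against 1.71 CPM. Lgmn was 4.79-fold and Ctsd 2.78-fold higher, and all 4 genes were higher in each library. Ctsz (2.10-fold), Ctsb (1.69-fold) and Ctsl (1.63-fold) were higher by less than the threshold on the log2 scale, and Cst3 was level (1.14-fold). At 1.5-fold 7 of the 8 were called, where 27.2% of genes were called in either direction. Ctss and Ctsc were too low to test, with 19 and 24 UMIs in endocardial-like cells.

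Both clusters that made up the endocardial-like class carried this pattern. Cluster 5 (2205 cells, led by Npr3) had Ctsh at 584 CPM and Ctsk at 77.7 CPM, and cluster 13 (757 cells, led by Cytl1) had 615 and 81.7 CPM. Cluster 11, the main arterial-like cluster, had 67.0 CPM of Ctsh, with 62.8, 39.4, 38.0 and 103 CPM in libraries 1 to 4, and 5 UMIs of Ctsk. Of single cells, 23.5% of endocardial-like cells had a Ctsk UMI, at a median depth of 3842 UMIs, against 0.398% of capillary endothelial-like cells at 2106 UMIs. With each cell thinned to 1000 UMIs the shares were 6.17% and 0.129%.

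Cathepsin D, the main aspartic protease of lysosomes, was the only member highest in a lymphoid class. Ctsd (ENSMUSG00000007891, chr7:142375911-142388038) was highest in NK cell-like cells at 626 CPM (571 to 685), with 679, 602, 570.3 and 674 CPM in libraries 1 to 4. Neutrophil-like (343 CPM), macrophage-like (311 CPM) and endocardial-like cells (302 CPM) followed with overlapping library ranges. Dendritic-like (39.5 CPM) and B cell-like cells (26.5 CPM) held the least. NK cell-like cells took 63.0% of their protease UMIs from Ctsd, against 5.95% in macrophage-like cells.

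Within macrophage-like cells Ctsd split the libraries. It stood at 181, 554, 164 and 443 CPM in libraries 1 to 4, so that libraries 2 and 4 were high and libraries 1 and 3 low. A subset with markers of macrophages from the body cavities was found in libraries 2 and 4 almost alone, with 0, 81, 3 and 35 cells in libraries 1 to 4. Without its 119 cells the level was 181, 190.2, 158 and 209 CPM, and the log2 fold against all other cells fell from 0.86 to 0.07. Those other cells held the 62 unnamed cells led by Retnla and Spp1, which were placed with macrophages only for the subsets below. The lipid-associated subset, with Spp1 and Retnla as its leading genes, held Ctsd at 1084 CPM. A fold with these 62 cells on the macrophage side was not computed.

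**Figure D3:**
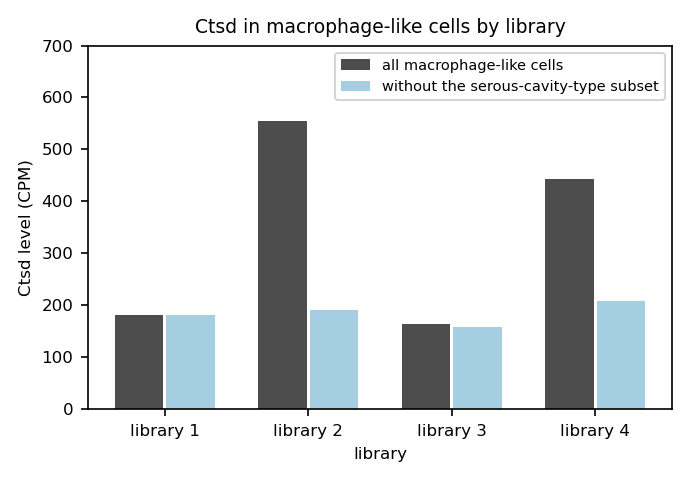
Ctsd level (CPM) in macrophage-like cells of each library, with all cells (dark bars) and without the serous-cavity-type subset (light bars). Libraries 2 and 4 drop from 554 and 443 CPM to 190.2 and 209 CPM, next to libraries 1 and 3.

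Cystatin C was the most abundant member by summed UMIs. Cst3 (ENSMUSG00000027447, chr2:148871722-148875692) reached 8324 CPM (8174 to 8475) in dendritic-like cells, with 7334, 8409, 8580.0 and 9049 CPM in libraries 1 to 4. Macrophage-like (3436 CPM), non-classical monocyte-like (3137 CPM), monocyte-like (1805 CPM) and fibroblast-like cells (1691 CPM) came next. All endothelial-like and mural classes held over 1000 CPM, while NK cell-like (135 CPM), ILC2-like (165 CPM), T cell-like (183 CPM) and B cell-like cells (219 CPM) were lowest. Fibroblast-like cells gave 41.1% of all Cst3 UMIs, the largest share of any class.

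The dendritic-like peak rested on 1 of 2 clusters. The Xcr1 cluster, 47 cells led by genes of cross-presenting dendritic cells such as Irf8 and Xcr1, held Cst3 at 18544 CPM (18143 to 18951), with 17149, 20587 and 17650.2 CPM in libraries 1 to 3 and too few cells in library 4. The Cd209a cluster, 113 cells led by that gene, held 3748 CPM, close to the 3436 CPM of macrophage-like cells. The Xcr1 cluster was poor in proteases, with Ctss at 397 CPM against 957 CPM in the Cd209a cluster, Ctsh at 121 against 493 CPM and Ctsd at 9.13 CPM from 4 UMIs.

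Fibroblast-like clusters also differed in Cst3, and less in Ctsl. Cluster 7, led by Cd248 and Pi16, genes of adventitial fibroblasts, held Cst3 at 975 CPM, with 953, 1012, 959.7 and 970.3 CPM in libraries 1 to 4. Cluster 1, the largest, held 1683 CPM, and clusters 8.1 and 8.2, led by Sfrp2 and Mfap4, held 3212 and 3213 CPM. Their libraries did not overlap with those of cluster 7. Ctsl in the same clusters ranged over 754, 833, 875 and 978 CPM. An unnamed cluster of 125 cells led by Cilp and Postn, genes of matrix-forming fibroblasts, had Ctsk at 77.8 CPM (61.4 to 97.2), above the 42.8 CPM of the fibroblast-like class and level with endocardial-like cells.

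Proteases and inhibitor were set against each other as the UMIs of the 9 proteases per UMI of Cst3, a ratio of transcripts that includes Ctsd, which cystatin C does not block. Fibroblast-like cells lay at 1.00 (0.993 to 1.01), and capillary endothelial-like cells at 0.582. Macrophage-like (1.52) and endocardial-like cells (1.54) had more protease than inhibitor UMIs in every library, from 1.48 to 1.61 in macrophage-like cells. B cell-like (5.09) and NK cell-like cells (7.34) had the highest ratios, with 219 and 135 CPM of Cst3. Ctsd made up 2.37% of the protease UMIs in B cell-like cells and 63.0% in NK cell-like cells, and a ratio without it was not computed. Dendritic-like cells had the lowest at 0.253, with 0.698 in the Cd209a cluster and 0.0523 in the Xcr1 cluster.

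**Figure D4:**
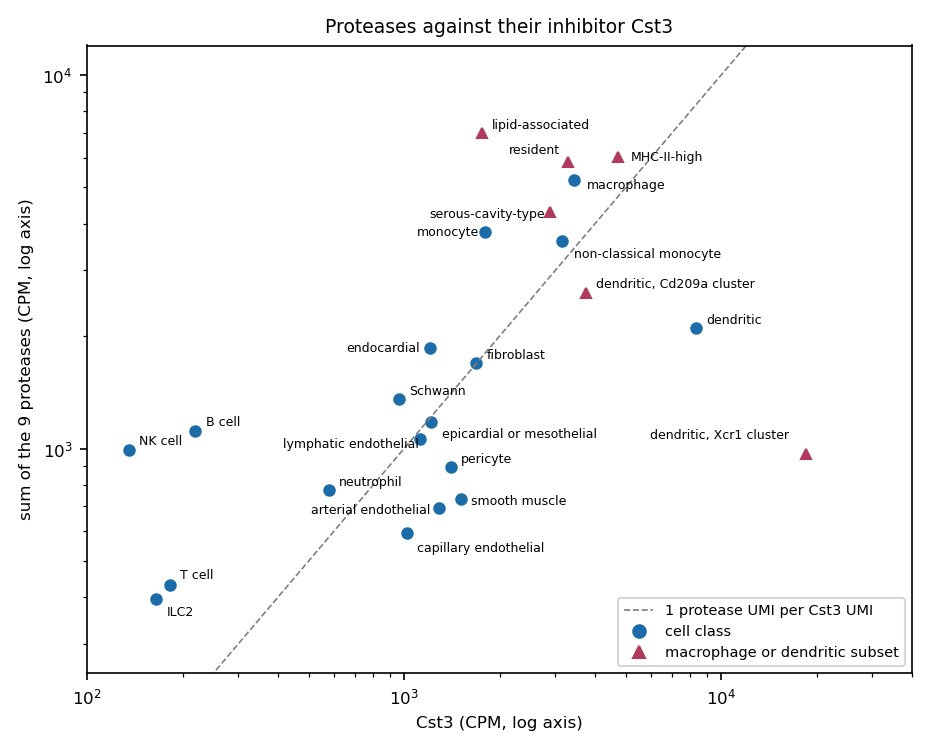
Summed level of the 9 proteases against Cst3 (both CPM, log axes) in cell classes (circles) and subsets (triangles). The dashed line marks 1 protease UMI per Cst3 UMI. The Xcr1 dendritic cluster lies farthest to the right and below the line, and lipid-associated macrophages lie above it.

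The make-up of the protease UMIs differed by class. Ctsl was the leading protease of fibroblast-like (48.3%), Schwann-like (57.6%), epicardial-like (50.1%) and capillary endothelial-like cells (39.3%). Ctss led in monocyte-like (38.5%), B cell-like (39.6%) and dendritic-like cells (37.2%), Ctsd in NK cell-like, neutrophil-like (44.2%) and T cell-like cells (34.7%), and Ctsh in endocardial-like cells (31.8%). In macrophage-like cells Ctsb (23.4%), Ctss (22.9%) and Ctsc (19.0%) stood close together.

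Macrophage-like cells and 62 neighbouring cells led by Retnla and Spp1 were divided into subsets, 1235 cells in all, with the members left out of the genes that formed them. Resident macrophages (305 cells, with Lyve1 and Folr2 among their leading genes), MHC-II-high macrophages (178, led by haemoglobin and then MHC class II genes), serous-cavity-type macrophages (119, with Prg4 and Alox15) and lipid-associated macrophages (60, with Spp1, Gpnmb and Fabp5) took a name. Unnamed sub-clusters of 275, 162, 89 and 47 cells held the rest, and no subset took its name from the markers for recruited or interferon-responding macrophages. The sub-cluster of 89 cells had endothelial genes such as Kdr and Flt1 among its leading genes. That of 47 cells had the heart muscle genes Ttn and Tnnt2 among them, at a median depth of 1873 UMIs. These cells were not removed, and their part in the macrophage values was not tested. Lipid-associated macrophages had 5 of their 8 list markers raised. They also met the list for recruited macrophages, with Ccr2 among their leading genes at 494 CPM against 34.1 CPM in resident macrophages, and tdTomato at 347 against 23.5 CPM. All 8 MHC class II genes were 2-fold or more higher in them than in resident macrophages, where 5.31% of 6905 genes were higher. The sums of these MHC class II genes were 21046 and 6828 CPM. Median depth was 5721, 3488, 11595 and 10386 UMIs per cell in the order of the names given, and its part in the differences below was not tested beyond the thinned values. Each subset had all 8 general macrophage markers, with sums of 17562, 19108, 10036 and 6176 CPM in the same order.

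Resident macrophages, the long-lived cells of the tissue, held the most Ctsc of the named subsets, and the most Ctsb when libraries were pooled. Ctsb stood at 1707, 1759, 1803 and 1874 CPM in libraries 1 to 4 and Ctsc at 1295, 1193, 1352 and 1191 CPM. The order of Ctsb rested on the pooling, since lipid-associated macrophages had 2000 CPM in library 1 and 2088 CPM in library 3, above the resident cells of those libraries, and 755 and 1190.1 CPM in libraries 2 and 4, below them (0.909-fold pooled). Lgmn (458 CPM) was shared with MHC-II-high macrophages (483 CPM).

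MHC-II-high macrophages were compared with resident ones in the same way. None of the 9 members tested was called, where 3.88% of 6658 genes were. With so few genes called, this count does not set the members apart from other genes. At 1.5-fold 4 of the 9 were called, where 17.0% of genes were. Ctsz was 1.998-fold higher (1.78 to 2.24), at 736, 767, 776 and 1044 CPM against 432, 362, 414 and 418 CPM, which misses the threshold once 20 CPM are added. Without library 3 its log2 fold was 1.08 and passed it. Ctss (1.65-fold), Ctsh (1.60-fold) and Cst3 (1.44-fold) were also higher in all 4 libraries, and Ctsb (0.680-fold), Ctsd (0.527-fold) and Ctsc (0.712-fold) lower in all 4. Haemoglobin and other erythroid markers summed to 10659.5 CPM in this subset and to 54.2 CPM in resident macrophages, and their part in the result was not tested.

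Lipid-associated macrophages, a state known for taking up fat and debris, had the most Ctsd of the named subsets when libraries were pooled, at 1084 CPM against 878 CPM in serous-cavity-type macrophages. In libraries 2 and 4, which hold nearly all of the cavity subset, that subset was higher, at 917 and 782 CPM. In lipid-associated macrophages Ctsd stood at 1498, 515, 1352 and 706 CPM in libraries 1 to 4, against 227, 271, 239.8 and 438 CPM in resident macrophages, and the groups did not overlap. The pooled difference was 4.25-fold (3.77 to 4.80). Ctsc was 0.408-fold as high, at 634, 597, 508 and 379 CPM. These 2 of 9 members were called, where 10.4% of 6905 genes were, and at 1.5-fold 6 were, where 25.4% of genes were. The Ctsd level was spread less evenly over lipid-associated than over serous-cavity-type cells. A Ctsd UMI was seen in 81.7% of lipid-associated and 95.8% of serous-cavity-type cells. After thinning the shares were 42.4% at 1085 CPM and 58.6% at 931 CPM, against 20.8% at 248 CPM in resident macrophages. Whether part of the lipid-associated subset carried the difference was not tested.

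Other members of the lipid-associated subset lay near the threshold. Ctss (1.97-fold) and Ctsz (1.90-fold) were higher in all 4 libraries, and Cst3 (0.535-fold) and Lgmn (0.583-fold) lower in all 4. Lgmn passed the threshold without library 3 (log2 fold -1.33), Ctss without library 2 (1.07) and Cst3 without library 4 (-1.04). Ctsb ranged from 755 CPM in library 2 to 2088 CPM in library 3. With 10 to 24 cells from each library, single cells weigh heavily here. The subset had 3.99 protease UMIs per Cst3 UMI (3.73 to 4.27), against 1.78 in resident macrophages, with 2.11 to 5.48 over libraries, of which library 4 lay level with the resident value of 2.12. Its 7 monocyte markers were all detected and summed to 1042 CPM, against 39.7 CPM with 4 of 7 at 0 in resident macrophages. T cell markers summed to 114 CPM with none of 6 at 0, against 3.91 CPM with 4 at 0, and dendritic markers to 133 CPM with 2 of 7 at 0, against 10.6 CPM with 3 at 0. The part of these in the result was not tested.

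Serous-cavity-type macrophages had high Ctsd and lower Ctsb, Ctsc and Lgmn than resident macrophages. In libraries 2 and 4 Ctsd stood at 917 and 782 CPM, against 271 and 438 CPM in resident macrophages of the same libraries. Within these libraries its log2 fold was 1.69 and 0.81, which missed the threshold in library 4. The folds that follow are pooled and set the subset against resident macrophages of all 4 libraries, with Ctsd 3.45-fold higher (3.09 to 3.85). Ctsb was at 821 and 791 CPM (0.453-fold), Ctsc at 483 and 285 CPM (0.337-fold) and Lgmn at 126 and 129 CPM (0.283-fold). These 4 of 9 members were called on the pooled folds, where 16.5% of 6903 genes were. Ctsb, Ctsc and Lgmn also passed the threshold within each of libraries 2 and 4. The other 5 tested, Ctsl (1.34-fold), Ctsz (1.08-fold), Ctss (0.974-fold), Cst3 (0.879-fold) and Ctsh (0.829-fold), were not called. With cells thinned to 1000 UMIs the Lgmn log2 fold was -0.97 in place of -1.68.

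The cavity subset carried markers of other cells as well. Fibroblast markers summed to 1544 CPM with none of 8 at 0, against 237 CPM in resident macrophages, and venous endothelial markers, which include Selp, to 1290.1 against 48.1 CPM. Of 7 epicardial or mesothelial markers 5 were at 0. The part of these in the result was not tested. After thinning, 58.6% of cavity-type and 20.8% of resident macrophages had a Ctsd UMI, where the unthinned shares were 95.8% and 63.9%.

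**Figure D5:**
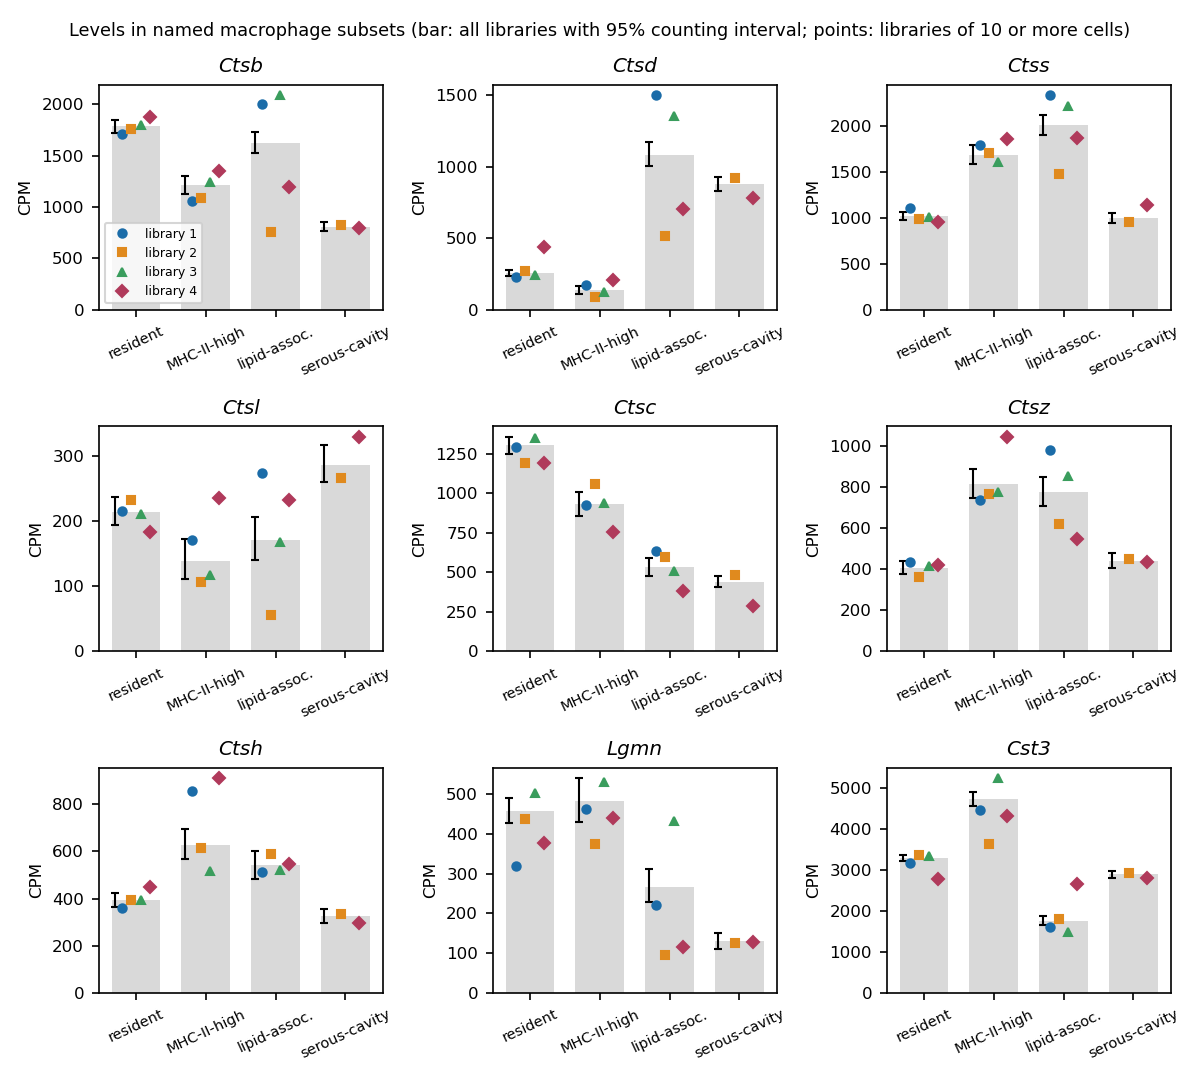
Levels (CPM) of 9 members in 4 named macrophage subsets. Grey bars are all libraries with the 95% counting interval, and points are libraries with 10 or more cells of the subset. Ctsd is high in the lipid-associated and serous-cavity subsets, Ctsc is lower in the other subsets than in the resident one in every library shown, Ctsb of the lipid-associated subset lies on both sides of the resident points, and Ctss and Ctsz are highest in the MHC-II-high and lipid-associated subsets.

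The cathepsins outside the set showed further division among cell types. Ctsa, a carboxypeptidase that also shields other lysosomal enzymes, peaked in macrophage-like cells (279 CPM) and was the 1 of 3 tested that was higher there. Ctsw peaked in NK cell-like cells (652 CPM), Ctse in T cell-like (93.1 CPM), Ctso in B cell-like (95.3 CPM), Ctsf in epicardial-like (103 CPM) and Ctsg in monocyte-like cells (13.1 CPM from 11 UMIs).

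The other inhibitors were spread as widely. Of 11 matched, 3 passed the filter and 1, Cstb, an inhibitor that works inside the cell, was higher in macrophage-like cells (164 CPM), with its peak in monocyte-like cells (248.9 CPM) and 672 CPM in lipid-associated macrophages. Stefins were neutrophil genes, with Stfa2l1 at 899.6, Stfa1 at 103 and Stfa2 at 31.6 CPM in neutrophil-like cells. The stefin copies are near-identical, so that their split is uncertain. Serpinb6a (549 CPM) and Cst6 (39.1 CPM) peaked in fibroblast-like cells, Serpinb1a in epicardial-like cells (139 CPM), and Serpina3g (262 CPM) and Cst7 (102 CPM) in NK cell-like cells.

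Other lysosomal hydrolases were set beside the cathepsins. The background for the counts of these and of all other gene lists in macrophage-like cells is the 8.89% of 8075 genes that were higher and the 14.1% that were lower. Of the glycosidases and sulfatases that passed the filter, 6 of 16 were higher in macrophage-like cells and none lower, among them Hexa (347 CPM) and Man2b1 (340.2 CPM). For lipases, saposins and lipid carriers it was 5 of 9, the list being highest in monocyte-like cells through Psap (2155 CPM), Npc2 (1329 CPM) and Gm2a (354 CPM). Other peptidases and phosphatases gave 3 of 7, led in monocyte-like cells by Ifi30 (753 CPM), the thiol reductase of antigen processing, Grn (292 CPM) and Ggh (139 CPM). The median log2 folds of these lists were 0.57, 1.04 and 0.97, beside 1.57 for the 8 cathepsins of the set.

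Membrane and pump genes completed the organelle. Lysosomal membrane proteins had 4 of 10 higher, with Laptm5 (995 CPM), Lamp1 (612 CPM) and Lamp2 (535 CPM) in macrophage-like cells, and the proton pump that acidifies the lysosome 3 of 15, with Atp6v0c (479.9 CPM), Atp6v0b (457 CPM) and Atp6v0e (291 CPM) in monocyte-like cells. Delivery and control genes had 2 higher, Mitf and Tfec, and 1 lower of 10. The lower gene was Igf2r, a mannose 6-phosphate receptor, at 11.3 CPM in macrophage-like against 155 CPM in fibroblast-like cells, the class where this list was highest and where Lrp1 (588 CPM) and M6pr (43.4 CPM) were the others among the 3 most abundant. MHC class II genes, the partners of Ctss, had 6 of 8 higher and were highest in dendritic-like cells through Cd74 (18452 CPM), H2-Ab1 (7299 CPM) and H2-Eb1 (6889 CPM).

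Genes with the most similar pattern over the 18 classes were named for each member by Pearson's r of log2(CPM + 20), as a description over classes that share libraries. Ctsk was closest to Nalcn (r 0.983), Itgbl1 and Cyp1b1, Ctss to Cd86 (0.975), Pld4 and Ms4a6c, and Ctsl to Tceal8 (0.961), Tsen34 and Copz2. Ctsb and Cst3 both had Alpk1 among their 3 (0.888 and 0.867), Ctsb with Acp2 and Ctsa, Cst3 with Ccdc88a and Arf2. Lgmn was closest to Lacc1 (0.886), Serpinb2 and Tmem106a, Ctsc to Ms4a6c (0.875), Ms4a6d and Tank, and Ctsz to Scpep1 (0.866), Asah1 and Tep1. Ctsh reached 0.812 with Rasgef1b, then Icam1 and Cnpy3, and Ctsd 0.707 with Vps29, then Trip4 and Ifitm10, the weakest of the best matches. Among the members themselves the closest pair was Ctss and Ctsc (0.877), followed by Ctsz and Lgmn (0.847), and the most opposed was Ctss and Ctsl (-0.545).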

How the data were processed

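Single-cell RNA from 2 control heart samples and 2 heart samples taken 1 month after stroke was measured as UMI counts per gene and cell. The sample titles do not say how many hearts went into a sample. The authors deposited these raw counts as 1 joined table; per the submitters' processing notes, Cell Ranger 7.1.0 and build mm10 were used. The 4 libraries in the table are numbered, and no label ties a number to a sample.

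Cells with fewer than 500 UMIs, fewer than 250 genes or more than 15% mitochondrial UMIs (821) and doublets (1316, Scrublet) were removed. The automatic doublet threshold marked 0 cells in library 3, where 0.208 was used in its place. Cells were clustered with scanpy 1.11.5 (2000 variable genes, 30 components, 15 neighbours, Leiden resolution 1), with the members and all listed genes left out. Clusters were named where at least 3 markers were raised, and the rules for naming and splitting clusters were settled after clusters had been seen. UMIs were summed per class and library. Genes at 20 CPM or more on either side of a comparison were tested for a 2-fold difference, and peaks were sought among genes at 50 CPM or more. Intervals are exact Poisson (levels), Clopper-Pearson (shares) and conditional binomial (ratios); 0 UMIs allow up to 3. The calculation was tested on simulated data.

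The members and lists were chosen with earlier results of these data known. All members were named, with the 3 most abundant genes of each other list in the class where it is highest, every other cathepsin and inhibitor of 20 UMIs or more, and the 3 genes most alike to each member; 1 gene that this rule names is not reported here. Alternatives were a higher UMI minimum, doublets kept, a finer clustering, equal weights for cells or libraries, thinning, each library left out, and other thresholds.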

Additional observations from a re-analysis of the deposited data

How the results depend on the processing

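Of 831 values recomputed under alternatives, 664 stayed within a set margin, 167 moved beyond it and 0 changed sign after being called. The margin was the counting error for levels and for folds with an interval. It was a factor of 1.5 for counts of members and shares of genes. Folds with too few UMIs for an interval had a fixed margin. The class with the highest level was the same in 118 of 120 recomputations. The exceptions were Ctss, highest in macrophage-like cells with doublets kept, and Ctsl, highest in Schwann-like cells with cells weighted equally. The count of members lower in macrophage-like cells, 2 in the report, was 1 with doublets kept, 0 with cells weighted equally, 0 with cells thinned to 1000 UMIs and 1 to 2 with a library left out. The count of members higher there was 7 to 8 with a library left out. For lipid-associated macrophages, with 2 members called in the report, the count was 5 at Leiden resolution 2, 4 with libraries weighted equally, 6 at 1.5-fold (where 25.4% of genes were called) and 2 to 3 with a library left out. At resolution 2 the lipid-associated subset held 53 cells, with Igkc and Cd79a among its leading genes. A sub-cluster of 30 cells led by Retnla was unnamed at that resolution. For MHC-II-high macrophages the count was 4 at 1.5-fold (17.0% of genes) and 0 to 1 with a library left out, against 0. For endocardial-like cells it was 7 at 1.5-fold (27.2% of genes), against 4. The cause of these moves was not tested.

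No paired analysis was possible because the numbered libraries are not tied to samples, and the planned stroke and control alternatives were not run for the same reason. The number of cells limits the rare subsets most, with 60 lipid-associated macrophages in all. A level of 0 allows up to 3 UMIs.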

Other observations

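Prtn3, a granule serine protease of neutrophil precursors, was picked out after its values had been seen. It peaked in macrophage-like cells at 80.6 CPM and stood there through the serous-cavity-type subset, at 402 CPM against 0 in resident macrophages.

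Some other lysosomal genes differed between lipid-associated and resident macrophages, and these too were chosen after their values had been seen. Psap, the precursor of the saposins, stood at 2274 against 790.1 CPM, Gm2a, the GM2 ganglioside activator, at 429 against 92.8 CPM, and Ifi30 at 571 against 199 CPM. Lamp1 was at 704 against 767 CPM.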
